A study of Mus musculus with 4 samples.

Results

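A set of 10 astrocyte genes for transport, coupling and metabolism was followed in mouse prefrontal cortex (PFC) after knockdown of *Ash1L*, a histone methyltransferase gene. The genes were chosen by name for what their proteins do in astrocytes: *Slc1a2*, *Slc1a3*, *Glul*, *Aqp4*, *Gja1*, *Gjb6*, *Aldh1l1*, *Aldoc*, *S100b* and *Prodh*. Earlier results of these data were known when they were chosen. All 10 were among the 23420 gene symbols counted and among the 16232 with enough counts to be tested. The question was whether they fell by a like amount in *Ash1L* shRNA samples or whether only some of them fell.

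RNA-seq counts were available for 4 PFC samples of C57BL6/J mice. The 2 control samples came from mice injected with an adeno-associated virus (AAV), named GFP-AAV9 in the labels. The study instead names a scrambled shRNA AAV as the control of its RNA-seq comparison. Whether the control virus of these samples carried an shRNA is not settled by these sources. The 2 *Ash1L* shRNA samples came from mice injected with AAV9 carrying shRNA against *Ash1L*. The series description gives an age of 6 to 8 weeks for both groups and names 3 knockdown and 2 control mice, whereas the methods describe tissue of several mice pooled for each sample. No other treatment was named for either group. The shRNA was driven by the U6 promoter, which is active in every cell type, so its promoter did not restrict the knockdown to astrocytes, and GFP-containing tissue of the injected region was collected as total cell lysate. The labels call the samples biological duplicates.

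Astrocytes take up the glutamate that neurons release through 2 sodium-driven transporters, convert it to glutamine and return the glutamine to neurons. They also carry water channels on the endfeet that surround vessels, are joined to each other by gap junctions built from connexins, and run glycolysis and amino acid breakdown that neurons draw on. In cortex the 10 genes are known as enriched in astrocytes, although some, such as *S100b* and *Glul*, are also transcribed in oligodendrocyte lineage cells.

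Total counts were 14251190 and 35764874 in control samples 1 and 2, and 27479339 and 20106708 in *Ash1L* shRNA samples 1 and 2. Levels are given as CPM, the reads of a gene scaled to a common library size after TMM normalization between samples, and fold changes are *Ash1L* shRNA over control on a log2 scale with the standard error (SE) of the fit. A gene was called DOWN or UP with the limits used in the study, an unadjusted P under 0.05 and at least a 1.2-fold change, but with the P of edgeR's quasi-likelihood test in place of the DESeq2 test of the study. The targeted gene *Ash1l* was at 245 and 290 CPM in control samples and at 216 and 138 CPM in *Ash1L* shRNA samples. The fitted log2 change was -0.60 (SE 0.22, n = 2 per group, edgeR unadjusted P = 0.0362, adjusted P = 0.275), and both *Ash1L* shRNA samples were below both controls, with the lower level in sample 2. The 4 listed markers of cortical neurons were all detected, at a summed 271 and 269 CPM in control samples and 232 and 173 CPM in *Ash1L* shRNA samples.

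Most of the set fell: 8 of the 10 genes were DOWN and none was UP. Of all tested genes, 8.28% were DOWN and 8.61% were UP. Because the set was chosen with earlier results of these data known, these shares are a description and not a test of the set. The 8 were *Slc1a2*, *Slc1a3*, *Glul*, *Gja1*, *Gjb6*, *Aldh1l1*, *Aldoc* and *Prodh*, and in each of them both *Ash1L* shRNA samples were below both controls, an order shown by 26.8% of all tested genes. *Aqp4* and *S100b* were not called and their groups overlapped. The median log2 fold change of the 10 genes was -0.81 beside -0.0027 for all tested genes, a value that TMM scaling keeps near 0. None of the 10 had an adjusted P under 0.05 with edgeR's quasi-likelihood test, where the 8 genes ranged from 0.234 to 0.275 and 0.00616% of all tested genes passed (1 gene). With DESeq2, 3 of the 10 had an adjusted P under 0.05, beside 2.59% of all genes, namely *Gja1* (2.5e-05), *Slc1a3* (0.000339) and *Aldh1l1* (0.0233). The likelihood ratio test of edgeR gave the same 3, beside 2.95% of all genes. The number DOWN was 3 without control sample 1, 4 without control sample 2, 9 without *Ash1L* shRNA sample 1 and 7 without sample 2, and over all genes it moved from 1344 to 699, 306, 2718 and 842. Several fold changes whose calls were lost stayed of similar size, that of *Aldoc* being -1.16 without control sample 1 and -1.20 without control sample 2. In bulk tissue, fewer astrocytes and less RNA per astrocyte cannot be told apart.

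**Figure D1:**
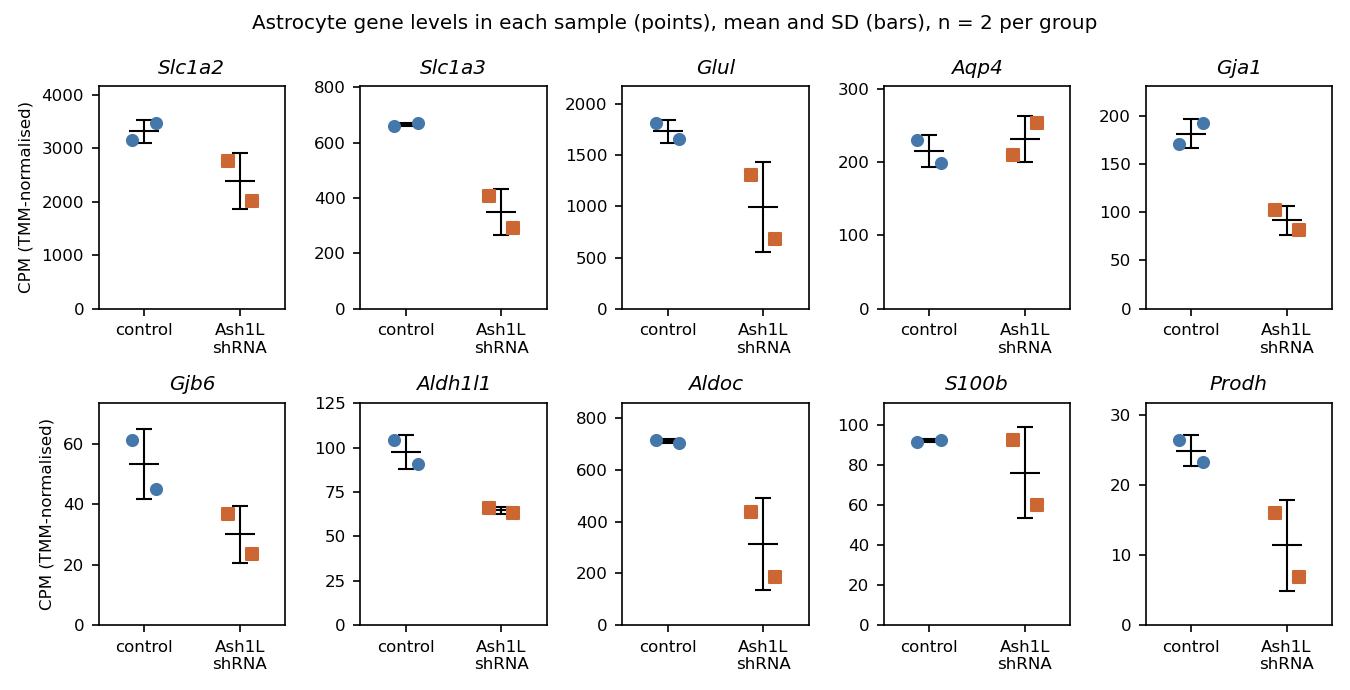
Level of each of the 10 astrocyte genes (CPM, linear axes from 0 that differ between genes) in the 4 PFC samples, with a point for every sample and the mean and SD of each group (n = 2) as bars. The *Ash1L* shRNA points lie below both control points for 8 genes and overlap the control points for *Aqp4* and *S100b*.

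The promoters of *Slc1a3* and *Gja1*, which were DOWN under every processing alternative run, and of *S100b*, which was not called, are shown so that their sequences can be set side by side. RefSeq promoter windows (GRCm38.p6, the same sequence as mm10) were found for 9 of the 10 genes, in 10 windows because *Aldoc* has a pair of starts. Each sequence is the 250 bases before the start of transcription, read 5′ to 3′ on the strand of the gene, and capitals mark the letters found when both strands were searched for TTGGC (half-site of the NFI family), ACAAT (core of SOX sites), TATAAA and GGGCGG.
*Slc1a3*, chr15:8710808-8711057, minus strand: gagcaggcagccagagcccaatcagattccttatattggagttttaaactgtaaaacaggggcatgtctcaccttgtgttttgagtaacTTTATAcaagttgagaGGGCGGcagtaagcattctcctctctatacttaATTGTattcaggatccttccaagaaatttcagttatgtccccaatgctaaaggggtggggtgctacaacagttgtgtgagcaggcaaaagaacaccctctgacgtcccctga
*Gja1*, chr10:56377050-56377299, plus strand: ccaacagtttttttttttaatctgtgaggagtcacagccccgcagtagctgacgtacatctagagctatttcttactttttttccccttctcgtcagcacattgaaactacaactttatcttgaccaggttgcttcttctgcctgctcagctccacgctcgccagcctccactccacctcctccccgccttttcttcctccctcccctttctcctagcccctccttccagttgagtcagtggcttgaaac
*S100b*, chr10:76253586-76253835, plus strand: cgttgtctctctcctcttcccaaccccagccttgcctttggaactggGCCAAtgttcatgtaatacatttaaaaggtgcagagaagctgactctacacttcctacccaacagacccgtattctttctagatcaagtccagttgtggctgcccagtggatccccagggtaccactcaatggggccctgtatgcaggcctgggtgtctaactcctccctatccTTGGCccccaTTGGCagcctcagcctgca

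The *Slc1a3* window held TATAAA starting 161 bases before the start, GGGCGG at 145 bases and ACAAT at 112 bases, with TATAAA and ACAAT on the opposite strand. The *S100b* window held TTGGC at 203, 29 and 19 bases before the start, and the *Gja1* window held none of the 4 motifs. No matches overlapped in these windows. TTGGC was found in 5 of the 10 windows and in 41.5% of all 32851 windows of the same length, ACAAT in 2 and in 27.7%, TATAAA in 1 and in 12.4%, and GGGCGG in 4 and in 32.7%. None of the 4 motifs was present in all windows of genes that were DOWN, and a match of these letters is a description of the sequence only.

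Both glutamate transporters were DOWN. *Slc1a2* (ENSMUSG00000005089, chr2:102658659-102790784 in mm10, gene bounds from GENCODE vM21 for all genes) encodes GLT-1, the main glutamate transporter of cortical astrocytes. Its level was 3159 and 3467 CPM in control samples 1 and 2, and 2757 and 2013 CPM in *Ash1L* shRNA samples 1 and 2. Both *Ash1L* shRNA samples were below the controls, with sample 1 closer to them, and the mean fell from 3313 ± 217 to 2385 ± 526 CPM (SD, n = 2). Its log2 change was -0.47 (SE 0.18, edgeR unadjusted P = 0.0346), or 72.0% of the control level. This call was lost when the replicate number was entered as a block (edgeR unadjusted P = 0.0543). It was also lost without either control sample and without *Ash1L* shRNA sample 2.

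*Slc1a3* (ENSMUSG00000005360, chr15:8634124-8710764) encodes GLAST, the glutamate transporter that is also used by radial glia and Bergmann glia. Its level was 661 and 670 CPM in control samples, and 406 and 289 CPM in *Ash1L* shRNA samples. The controls were nearly level with each other and both *Ash1L* shRNA samples were well below them. On the log2 scale the change was -0.94 (SE 0.18, edgeR unadjusted P = 0.00150), or 52.3% of control.

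*Glul* (ENSMUSG00000026473, chr1:153899944-153909723) encodes glutamine synthetase, which turns the glutamate taken up into glutamine. Its level was 1818 and 1660 CPM in control samples, and 1308 and 680 CPM in *Ash1L* shRNA samples. Sample 2 was far below sample 1, and the *Ash1L* shRNA mean of 994 ± 444 CPM (SD, n = 2) varied more widely than the control mean of 1739 ± 112 CPM. This gave a log2 fold change of -0.81 (SE 0.30, edgeR unadjusted P = 0.0364), or 57.2% of control, with a 95% interval from -1.54 to -0.07.

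The water channel was not called. *Aqp4* (ENSMUSG00000024411, chromosome 18) encodes aquaporin-4, the water channel of astrocyte endfeet. Its level was 231 and 200 CPM in control samples, and 210 and 254 CPM in *Ash1L* shRNA samples. The groups overlapped, *Ash1L* shRNA sample 1 lay between the controls and sample 2 was the highest of the 4. The fitted log2 change was 0.11 (SE 0.14, edgeR unadjusted P = 0.481), with a 95% interval from -0.24 to 0.45. That interval does not reach the fitted fold change of any of the 8 genes that were DOWN, the smallest of which was -0.47. It does overlap the 95% intervals of *Slc1a2* (-0.90 to -0.05), *Glul*, *Gjb6*, *Aldoc* and *Prodh*, but not those of *Slc1a3*, *Gja1* and *Aldh1l1*.

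Both astrocyte connexins fell. *Gja1* (ENSMUSG00000050953, chr10:56377330-56402513) encodes connexin 43, the main gap junction protein between astrocytes. Its level was 171 and 193 CPM in control samples, and 102 and 81.3 CPM in *Ash1L* shRNA samples. Both *Ash1L* shRNA samples were far below the controls and close to each other. The log2 fold change was -0.99 (SE 0.15, edgeR unadjusted P = 0.00047), or 50.4% of control, the smallest P among the 10 genes.

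*Gjb6* (ENSMUSG00000040055, chr14:57123303-57133611) encodes connexin 30, which joins connexin 43 in junctions of grey matter astrocytes. Its level was 61.3 and 45.1 CPM in control samples, and 36.7 and 23.4 CPM in *Ash1L* shRNA samples. The controls were further apart than for any other of the 10 genes, by 0.44 on the log2 scale, and still did not overlap the *Ash1L* shRNA samples. Its log2 change was -0.82 (SE 0.25, edgeR unadjusted P = 0.0185), or 56.8% of control.

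The metabolic genes *Aldoc* and *Prodh* had the lowest fold changes of the 10, an order set by *Ash1L* shRNA sample 2. Without that sample the lowest were *Gja1* (-0.83) and *Slc1a3* (-0.71), ahead of *Aldoc* (-0.70) and *Prodh* (-0.63). *Aldoc* (ENSMUSG00000017390, chr11:78322968-78327781) encodes aldolase C, the brain form of a glycolytic enzyme. Its level was 718 and 707 CPM in control samples, and 439 and 188 CPM in *Ash1L* shRNA samples. The controls were close to each other, whereas sample 2 was much lower than sample 1. On the log2 scale the change was -1.18 (SE 0.39, edgeR unadjusted P = 0.0277), or 44.0% of control, with a 95% interval from -2.18 to -0.19. Of all tested genes, whether called or not, 168 had a lower value.

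*Prodh* (ENSMUSG00000003526, chr16:18060357-18090203) encodes proline dehydrogenase, the mitochondrial enzyme that starts the breakdown of proline. Its level was 26.5 and 23.3 CPM in control samples, and 16.0 and 6.80 CPM in *Ash1L* shRNA samples. It had the fewest counts of the 10, from 141 in *Ash1L* shRNA sample 2 to 819 in control sample 2, and sample 2 was again much lower than sample 1. This gave a log2 fold change of -1.12 (SE 0.38, edgeR unadjusted P = 0.0267), or 46.1% of control.

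*Aldh1l1* (ENSMUSG00000030088, chr6:90486427-90600203) encodes the folate enzyme 10-formyltetrahydrofolate dehydrogenase, widely used as a marker of astrocytes. Its level was 105 and 91.0 CPM in control samples, and 66.2 and 63.3 CPM in *Ash1L* shRNA samples. The *Ash1L* shRNA samples were close to each other and below both controls. The fitted log2 change was -0.59 (SE 0.12, edgeR unadjusted P = 0.00223), or 66.2% of control. An opposite-strand transcript of GENCODE vM21, *Gm15756*, which is not among the counted symbols, shares 10.5% of the exonic bases of *Aldh1l1*, and the strand setting of the counting was not stated, so reads of the pair cannot be told apart.

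*S100b* (ENSMUSG00000033208, chr10:76253853-76261159) encodes the calcium-binding protein S100B. Its level was 91.9 and 92.8 CPM in control samples, and 92.5 and 60.1 CPM in *Ash1L* shRNA samples. Sample 1 lay between the controls, and sample 2 was below them. The log2 fold change was -0.27 (SE 0.20, edgeR unadjusted P = 0.227), and the 95% interval from -0.77 to 0.22 includes both no change and a fall of the size seen for *Slc1a2*.

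**Figure D2:**
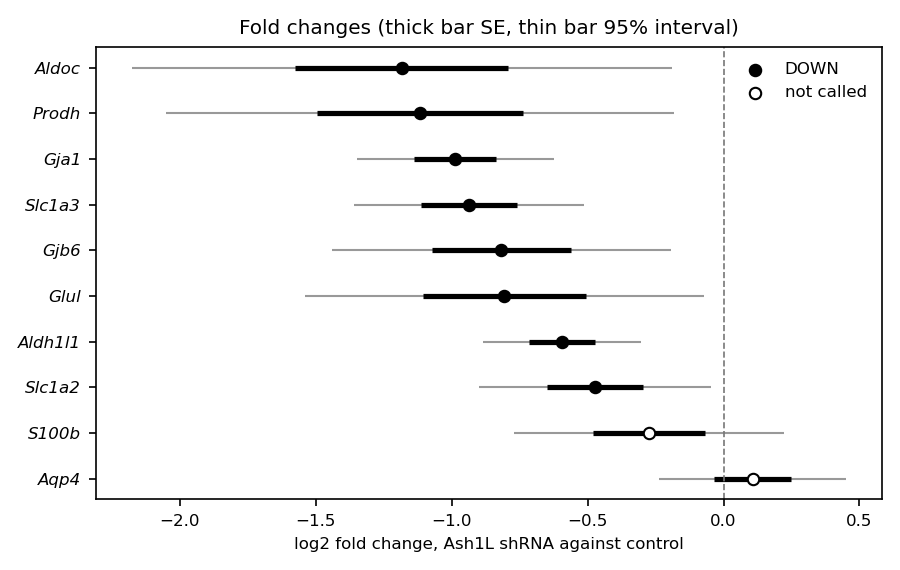
Log2 fold change of each gene (*Ash1L* shRNA over control, horizontal axis) as a point, with the SE as a thick bar and the 95% interval of edgeR's quasi-likelihood fit as a thin bar; filled points are DOWN and open points were not called. Values run from -1.18 for *Aldoc* to 0.11 for *Aqp4*, with the intervals of *Aqp4* and *S100b* crossing 0.

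Compared per length of transcript, *Glul* was the most abundant of the 10 in control samples, at a mean of 623 CPM per kilobase of exon. It was followed by *Slc1a2* at 274, *Aldoc* at 239 and *Slc1a3* at 151 CPM per kilobase. *S100b* (62.2), *Gja1* (54.0), *Aqp4* (36.4), *Gjb6* (25.3), *Aldh1l1* (23.4) and *Prodh* (8.75) came next on the same scale. Among neighbours in this order, *Gjb6* and *Aldh1l1* overlapped between the control samples and no other neighbours did. In *Ash1L* shRNA samples the means of *Aqp4* (39.2) and *Gja1* (27.2 CPM per kilobase) stood in the opposite order to controls, as did *Aldh1l1* (15.5) and *Gjb6* (14.3), the latter pair with overlap between samples. *Aldoc* also overlapped *Slc1a3* in these samples, and *S100b* overlapped *Aqp4*. The 10 genes together held 0.698% and 0.701% of all counts in control samples and 0.542% and 0.377% in *Ash1L* shRNA samples.

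The depth of the fall differed between the *Ash1L* shRNA samples. The median difference of the 10 genes from the control mean was -0.54 on the log2 scale in sample 1 and -1.16 in sample 2. The median of all genes, which TMM scaling keeps near 0, was -0.00071 and 0.0032. Levels were lower in sample 2 for 9 of the 10 genes, *Aqp4* being the exception. *Aldoc* was at -0.70 in sample 1 and -1.92 in sample 2, *Prodh* at -0.64 and -1.87, and *Glul* at -0.41 and -1.35. These had the widest gaps between the samples. *Aldh1l1* was at -0.56 and -0.62 and *Gja1* at -0.83 and -1.16, which were the closest values among the genes that were DOWN. *Ash1l* itself was also lower in sample 2, and with 2 samples a relation between its level and that of the 10 genes cannot be tested.

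**Figure D3:**
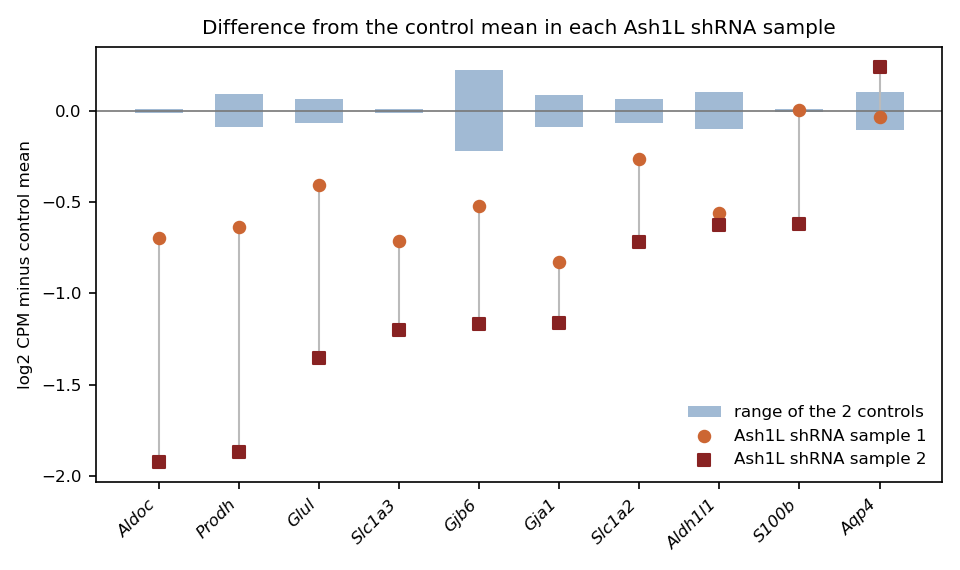
Difference of each gene from the control mean (log2 scale) in *Ash1L* shRNA samples 1 and 2, joined by a line, with the range of the 2 controls shaded. Sample 2 lies below sample 1 for 9 of the 10 genes, and the medians are -0.54 and -1.16.

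The fold changes of the 10 genes spanned 1.29 on the log2 scale, and 2 genes had an unadjusted P under 0.05 in a test of their difference from the other 9. To compare the genes within the libraries, each library was scaled to the geometric mean of the other 9 genes in place of TMM and the fit across all genes was repeated, a value that does not carry the error of those 9 genes. The count of *Aqp4* over that mean was 0.859 and 0.781 in controls and 1.14 and 2.2 in *Ash1L* shRNA samples, higher in both, and that of *Aldoc* was 3.03 and 3.18 in controls and 2.6 and 1.57 in *Ash1L* shRNA samples, lower in both. *Aqp4* rose against the other 9, with a log2 fold change of 1.03 (SE 0.40, edgeR unadjusted P = 0.0098, adjusted P = 0.0459), but 48.7% of all tested genes rose past the same P on that scale, so such a rise was common. *Aldoc* fell against the other 9, by 0.58 on the log2 scale (SE 0.29, edgeR unadjusted P = 0.0477, adjusted P = 0.1001), beside 0.450% of all tested genes. That share is low on a scale set by genes that mostly fell, where 7778 genes were higher and 73 lower at an unadjusted P under 0.05. It therefore does not by itself mark *Aldoc* out, which was also the gene with the lowest fold change of the 10. The calls of *Aqp4* and *Aldoc* rest on few samples. Without control sample 1 or 2, the unadjusted P of edgeR was 0.211 or 0.273 for *Aqp4* and 0.276 or 0.340 for *Aldoc*, and without *Ash1L* shRNA sample 2 it was 0.131 for *Aldoc*. *Aldoc* also missed the limit in edgeR's likelihood ratio test (unadjusted P = 0.0543), and both missed it with a crossed replicate block (edgeR unadjusted P = 0.0692 for *Aqp4* and 0.112 for *Aldoc*).

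For the other 8 genes the difference from the rest did not pass the test. Against their other 9, *S100b* was at 0.49 (SE 0.36, edgeR unadjusted P = 0.169), *Slc1a2* at 0.29 (SE 0.31, edgeR unadjusted P = 0.358) and *Prodh* at -0.50 (SE 0.34, edgeR unadjusted P = 0.142) on the log2 scale. Some passed when an *Ash1L* shRNA sample was left out. Without sample 1 these were *Prodh* at -0.92 (edgeR unadjusted P = 0.00132), *Aldh1l1* at 0.46 (edgeR unadjusted P = 0.00815) and *S100b* at 0.46 (edgeR unadjusted P = 0.0111). Without sample 2 they were *S100b* at 0.52 (edgeR unadjusted P = 0.00614) and *Gja1* at -0.41 (edgeR unadjusted P = 0.0341). Over all 4 samples *Gja1*, *Gjb6*, *Glul*, *Slc1a3* and *Aldh1l1* lay between -0.27 and 0.20, with SEs from 0.29 to 0.39.

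**Figure D4:**
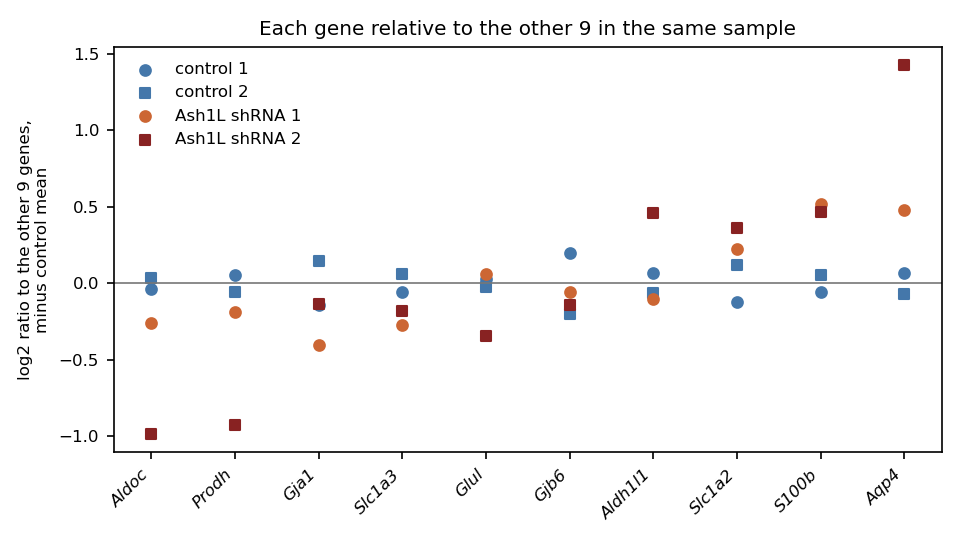
Log2 ratio of each gene to the geometric mean of the other 9 in the same sample, less its mean over the controls, with a point for each of the 4 samples and genes in order of their fold change against the other 9. The *Ash1L* shRNA points lie at 0.48 and 1.42 for *Aqp4* and at -0.26 and -0.98 for *Aldoc*.

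Ratios of raw counts within a library, which need no scaling between libraries, give the same comparison for pairs that were chosen after the counts were seen. *Slc1a3* over *Slc1a2* was 0.209 and 0.193 in control samples and 0.147 and 0.144 in *Ash1L* shRNA samples, lower in both. *Aldoc* over *S100b* was 7.82 and 7.61 in control samples and 4.75 and 3.12 in *Ash1L* shRNA samples. The other enzyme pair, *Prodh* over *Aldh1l1*, was 0.253 and 0.257 in controls, 0.242 in *Ash1L* shRNA sample 1 and 0.108 in sample 2, so that it was far lower in sample 2 only. *Aqp4* over *Gja1*, the water channel over the connexin, was 1.35 and 1.03 in controls and 2.05 and 3.12 in *Ash1L* shRNA samples. The connexin ratio, *Gjb6* over *Gja1*, was 0.358 and 0.234 in controls and 0.358 and 0.288 in *Ash1L* shRNA samples, with overlap. *Glul* over *Slc1a2* was 0.575 and 0.479 in controls and 0.474 and 0.338 in *Ash1L* shRNA samples, with only a narrow gap between the groups.

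Around these genes, 8 lists of pathway and astrocyte genes held 121 other tested genes, of which 28 were DOWN and 18 UP. Of all tested genes 8.28% were DOWN and 8.61% UP, the shares to set beside the counts of each list here and below. Of 13 astrocyte membrane transporters tested, 9 were DOWN and 1 was UP, with a median log2 fold change of -0.69. Without control sample 2, 5 were DOWN. *Slc6a11*, the GABA transporter GAT-3, was at 100.1 and 99.4 CPM in controls and 65.1 and 40.6 CPM after knockdown, for a log2 fold change of -0.91 (SE 0.22, edgeR unadjusted P = 0.00576). Also DOWN were the peptide carrier *Slc15a2* (-0.79), the zinc carrier *Slc39a12* (-0.77), the cystine-glutamate exchanger *Slc7a11* (-0.75), the bicarbonate carrier *Slc4a4* (-0.71), the serine carrier *Slc7a10* (-0.71) and the potassium channel *Kcnj16* (-0.41). The glycine transporter *Slc6a9* was UP (0.35), a call lost without either control sample and without *Ash1L* shRNA sample 1. It was also lost with DESeq2, the likelihood ratio test, a replicate block and a 1.5-fold limit.

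The rest of the glutamate and glutamine cycle did not fall as a group. Of 14 tested genes 2 were DOWN and 4 UP, with a median of 0.10. Without *Ash1L* shRNA sample 1, 5 were DOWN, and without any other single sample 1 was; the UP count was 2 without either control, and the median was -0.04 without control sample 2. *Glud1*, glutamate dehydrogenase, was DOWN at -0.66 (SE 0.16, edgeR unadjusted P = 0.00487) and so was the glutamine transporter *Slc38a3* (-0.34). The genes that were UP, *Slc1a4* (0.68), *Slc38a2* (0.59), *Slc25a22* (0.53) and *Slc1a1* (0.29), encode transporters of amino acids, *Slc1a1* being the neuronal glutamate transporter. The abundant genes *Slc17a7* (-0.30), the vesicular glutamate transporter, and *Got1* (-0.17), an aspartate aminotransferase, were not called.

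Genes of the endfoot complex around aquaporin-4 were divided. Of 8 tested, 4 were DOWN and none UP, with a median of -0.24, and 2 were DOWN without control sample 2 or without *Ash1L* shRNA sample 2. *Mlc1*, an astrocyte membrane protein of endfeet, was at 160 and 155 CPM in controls and 99.3 and 57.3 CPM after knockdown, for a log2 fold change of -1.01 (SE 0.25, edgeR unadjusted P = 0.00771). Its partner *Hepacam* (-0.33), the chloride channel *Clcn2* (-0.74) and the dystroglycan gene *Dag1* (-0.37) were also DOWN. Of the dystrophin scaffold that anchors aquaporin-4, *Dtna* (0.21), *Dmd* (-0.15) and *Utrn* (0.13) were not called. Of 10 other connexins and pannexins, none was DOWN or UP, and their values ran from -0.36 to 0.48.

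Energy and amino acid metabolism beyond *Aldoc*, *Prodh* and *Aldh1l1* moved both ways. Of 25 genes of glycolysis, lactate and glycogen, 4 were DOWN and 4 UP, with a median of 0.11. These counts moved to 1 DOWN and 0 UP without control sample 1, 1 and 1 without control sample 2, 2 and 1 without *Ash1L* shRNA sample 2, and 8 UP without *Ash1L* shRNA sample 1. Those DOWN were the glycogen phosphorylases *Pygb* (-0.97) and *Pygm* (-0.47), the glycogen targeting subunit *Ppp1r3c* (-0.43) and the lactate dehydrogenase subunit *Ldhb* (-0.45). Those UP were the other lactate dehydrogenase subunit *Ldha* (0.49), the lactate carrier *Slc16a1* (0.57), the glycolytic regulator *Pfkfb3* (0.70) and *Pgam1* (0.31). The other aldolase of brain, *Aldoa*, was at 0.22 and was not called. Of 16 tested genes of proline and folate metabolism, 1 was DOWN and 4 were UP, with a median of 0.18. *Aldh4a1*, the next enzyme after *Prodh* in proline breakdown, was DOWN at -0.52 (SE 0.18, edgeR unadjusted P = 0.0242), a call lost without control sample 1 and without *Ash1L* shRNA sample 2. The mitochondrial folate enzyme *Mthfd2* was UP, at 7.65 and 8.04 CPM in controls and 20.9 and 29.1 CPM after knockdown, for a log2 fold change of 1.67 (SE 0.21, edgeR unadjusted P = 0.000153). *Aldh1l2*, the mitochondrial counterpart of *Aldh1l1*, was UP at 1.19, as were *Mthfd2l* (0.67) and *Mthfd1l* (0.57).

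Other genes of astrocyte identity fell in part. Of 18 tested, 16 had a change below 0, 7 were DOWN and none was UP, with a median of -0.60. Without *Ash1L* shRNA sample 1, 11 were DOWN and the median was -0.93, whereas without sample 2 the median was -0.31. *Fgfr3*, a growth factor receptor of astrocytes, was at 105 and 99.97 CPM in controls and 60.1 and 46.3 CPM after knockdown, for a log2 fold change of -0.95 (SE 0.15, edgeR unadjusted P = 0.000611). The others DOWN were *Id4* (-1.20), *Ntsr2* (-0.94), *Mfge8* (-0.83), *Ttyh1* (-0.75), *Nfib* (-0.55) and *Sparcl1* (-0.48). The transcription factors *Sox9* (0.06) and *Nfia* (0.07) and the lipid carriers *Apoe* (-0.65) and *Clu* (-0.17) were not called. Neither were *Ndrg2* (-1.26, edgeR unadjusted P = 0.0561) and *Cldn10* (-1.09, edgeR unadjusted P = 0.0779), although their fold changes were among the lowest of the list. *Sox9*, *Nfia*, *Ndrg2* and *Cldn10* were singled out after their values were seen.

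Among genes of reactive astrocytes more were UP than DOWN. Of 17 tested, 5 were UP and 1 was DOWN, with a median of 0.59. The UP count was 2 without either control sample and 10 without *Ash1L* shRNA sample 1, and the median was 0.19 without *Ash1L* shRNA sample 2. *Osmr*, the oncostatin M receptor, was UP at 1.04, as were *Emp1* (1.24), *Tm4sf1* (0.81), *Aspg* (0.75) and *Serpina3n* (0.52). The complement gene *C3*, which microglia and other cells also express, was DOWN at -2.19, a call lost without control sample 2 and with no filter on low counts. *Gfap*, the intermediate filament of astrocytes, was at 319 and 352 CPM in controls and 349 and 322 CPM in *Ash1L* shRNA samples, with overlap and a log2 fold change of 0.00071 (SE 0.12, edgeR unadjusted P = 0.995).

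**Figure D5:**
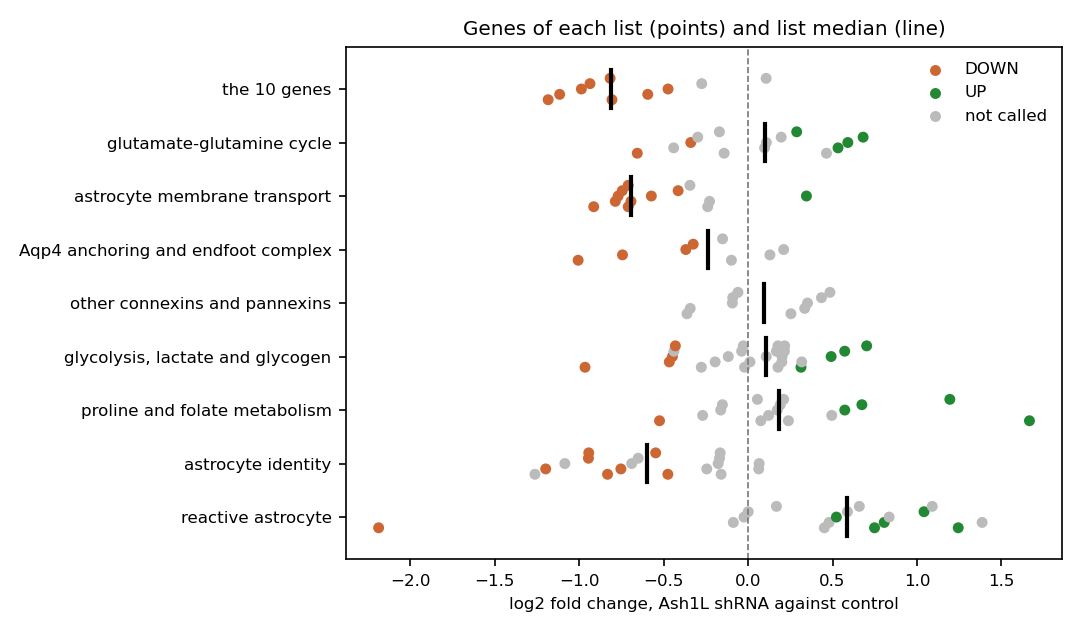
Log2 fold change (*Ash1L* shRNA over control) of each tested gene in the 10-gene set and in 8 related lists, coloured by its call, with a bar at the median of each list. The medians of the 10 genes (-0.81), of membrane transport (-0.69) and of astrocyte identity (-0.60) lie below 0, and that of reactive astrocyte genes (0.59) lies above it.

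Medians of marker lists of other cell types lay nearer to 0 than that of the 10 genes, apart from immune genes of infiltrating cells, and the part of these cells in the results was not tested. Summed over 7 neuron markers the level was 6547 and 6934 CPM in controls and 5842 and 4662 CPM in *Ash1L* shRNA samples, with 6 of 7 lower, 1 DOWN and a median of -0.24. Over 6 oligodendrocyte markers it was 2503 and 2818 CPM and then 2696 and 2371 CPM, with 5 lower and a median of -0.26. Over 6 microglia markers it was 579 and 596 CPM and then 696 and 298 CPM, which placed *Ash1L* shRNA sample 2 lowest here too, with 5 lower and a median of -0.19. The neuron, oligodendrocyte and microglia sums were thus also lower in sample 2 than in sample 1. The immune, endothelial, oligodendrocyte precursor and cortex sums were lower in sample 2 too, whereas the fibroblast and ependymal sums were higher. Immune genes of infiltrating cells, at a summed 33.5 and 65.1 CPM in controls and 29.5 and 14.6 CPM in *Ash1L* shRNA samples, were lower for all 5 tested of 8 listed, with 3 DOWN and a median of -1.71. The sums for 4 endothelial (149, 133, 153 and 148 CPM in the same sample order) and 4 fibroblast markers (58.4, 96.8, 93.0 and 99.6 CPM) overlapped between groups, with 1 and 0 of 4 lower and medians of 0.12 and 0.29. So did those for 3 oligodendrocyte precursor markers (181, 182, 234 and 173 CPM) and 3 ependymal and choroid plexus markers (9.85, 8.84, 5.59 and 14.4 CPM), with 1 of 3 lower in each and medians of 0.27 and 0.08. A single gene was UP among the fibroblast and among the oligodendrocyte precursor markers. No listed marker present in the counts was at 0 in every sample, and the 4 cortex markers, all lower with 2 DOWN, had a median of -0.57. Both *Ash1L* shRNA samples were below both controls for 6 of 7 neuron, 5 of 5 immune and 4 of 4 cortex markers. The same order held for 2 of 6 oligodendrocyte markers, beside 26.8% of all tested genes. It held for 0 of the microglia, endothelial, fibroblast, oligodendrocyte precursor and ependymal markers.

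Outside the set, the 5 genes whose profile over the 4 samples was most like the mean profile of the 10 genes were *Cyp2d22*, *Abhd3*, *Phkg1*, *Cacng7* and *Tmem132c*. They were taken from 10489 genes with a mean of at least 10 CPM by the root mean square difference of their log2 profiles, which ran from 0.0305 to 0.0425. Their log2 fold changes ran from -0.78 to -0.68, values below 0 that follow from how they were chosen. *Cyp2d22*, a cytochrome P450 gene, was at 19.1 and 17.4 CPM in controls and 12.9 and 8.49 CPM in *Ash1L* shRNA samples. By the same measure, 143 genes were at least as close to the mean profile as *Slc1a3*, the closest of the 10, whereas 7703 were at least as close as *Aqp4*, 3380 as *Aldoc* and 2957 as *Prodh*.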

How the data were processed

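Stranded libraries were made from total PFC RNA after removal of ribosomal RNA. Per the file headers and the methods, the authors aligned reads to mm10 with STAR and deposited raw counts per gene symbol from featureCounts, which they compared with DESeq2; the labels instead name Cutadapt and TopHat2. The strand setting was not given in the sources used here. The 10 genes and all lists were chosen with earlier results of these data known. Samples were grouped by their labels. Genes were filtered with filterByExpr, scaled with TMM and tested with edgeR 4.0.16 (R 4.3.3; robust glmQLFit, glmQLFTest, no covariate) with Benjamini-Hochberg adjustment over 16232 genes. The SE is the log2 fold change over the root of F, and intervals are 95%. The test was checked on simulated counts. CPM per kilobase used exonic lengths of GENCODE vM21. P rests on the spread between 2 samples per group, moderated by that of all tested genes. This gave 5.24 to 6.34 degrees of freedom for the 10 genes. A permutation of 2 against 2 cannot go below 0.333. Replicates differed by more than counting error (chi-square over its degrees of freedom 14.8 for controls, 42.3 for *Ash1L* shRNA). Total counts ran from 14251190 to 35764874. Named genes in each list were the 3 most abundant, given in part, and those DOWN or UP; a few of them are not reported here. Alternatives were DESeq2 1.42.0, the likelihood ratio test, other scalings and filters, a 1.5-fold limit, a replicate block and leaving out each sample.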

Additional observations from a re-analysis of the deposited data

How the results depend on the processing

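Under RLE, library-size and upper-quartile scaling, DESeq2, the likelihood ratio test and a stricter filter (10 counts or more in each library), 8 of the 10 genes were DOWN. With no filter 6 were, *Glul* (edgeR unadjusted P = 0.0619) and *Aldoc* (edgeR unadjusted P = 0.0886) being lost. At a 1.5-fold limit 7 of the 10 were DOWN, 491 genes were DOWN and 765 UP in all, and 17 pathway genes were DOWN and 10 UP. Leaving out 1 sample at a time gave 3 to 9 of the 10 DOWN and a median log2 fold change from -1.18 to -0.54. It was 3 without control 1 (*Slc1a3*, *Gja1* and *Aldh1l1*), 4 without control 2 (*Gjb6* added), 9 without *Ash1L* shRNA 1 (*S100b* added) and 7 without *Ash1L* shRNA 2 (*Slc1a2* lost), the lone sample being assumed to vary like the others. The span of the fold changes ran from 0.83 to 2.16, genes DOWN from 306 to 2718, genes UP from 423 to 2368, pathway genes DOWN from 15 to 38 and UP from 8 to 26. *Slc1a3*, *Gja1* and *Aldh1l1* were DOWN under every alternative run. The number of all genes with an adjusted P under 0.05 was 1 in edgeR's quasi-likelihood test, 421 with DESeq2, 479 with the likelihood ratio test, 34 with no filter and 0 to 2502 when a sample was left out. Signs turned for *Aqp4* (-0.034 to 0.23 over the leave-outs, below 0 without *Ash1L* shRNA 2) and *S100b* (-0.63 to 0.0045, above 0 without *Ash1L* shRNA 2), and against the other 9 genes for *Gjb6* (-0.30 to 0.10), *Glul* (-0.35 to 0.063) and *Aldh1l1* (-0.11 to 0.46), none of which had been called. The causes were not tested.

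The titles link the same-numbered samples by a number only, and whether they were prepared together is not known here. Their deviations had a correlation of -0.10 over 16189 genes. In a fit with a replicate block, 7 of the 10 genes were DOWN, *Slc1a2* being lost (edgeR unadjusted P = 0.0543), the median was -0.86, 1020 genes were DOWN and 1052 UP, and 0 had an adjusted P under 0.05 in edgeR (2072 with an unadjusted P under 0.05). With this block 11 genes of astrocyte identity were DOWN (11 also in the likelihood ratio test) and 2 of the endfoot list. A block with the numbers crossed, added after seeing the data, left 8 of the 10 DOWN, with 1736 genes DOWN, 1541 UP and 16 with an adjusted P under 0.05.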
